A study of Mus musculus with 26 samples.

Results

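The lysosome and autophagy genes examined here are 34 mouse genes taken by name from the 45318 genes of the RNA-seq count files. They comprise 3 transcription factors of the MiT/TFE family, 6 lysosomal membrane proteins, 9 enzymes and cofactors of the lysosomal lumen, 5 subunits of the vacuolar proton pump (V-ATPase), 6 autophagy proteins and 5 proteins of Rag-folliculin nutrient sensing. All 34 were found by symbol, and 33 had enough counts to be tested, with Rragd as the exception.

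The libraries came from 4T1 cells, an aggressive triple-negative mammary carcinoma line of the BALB/c mouse, grown in DMEM with serum and antibiotics. The question was how the transcriptome of 4T1 cells changes without MaTAR25, a nuclear long noncoding RNA. The control group (genotype wild type, 2 libraries) was made with a guide RNA against Renilla luciferase, a gene that mouse cells lack. KO1 (3 libraries) and KO2 (4 libraries) have the genotype MaTAR25-/-, in which CRISPR/Cas9 and a pair of guide RNAs removed the start site of MaTAR25, and the knockout cells were grown from sorted single cells. KO1 and KO2 are described as clones, so a difference between a clone and the control cannot be told apart from what sets that clone apart for other reasons. The paper describes the control cells as grown from single cells too, and as picked for a MaTAR25 level like that of the parental cells. A change shared by KO1 and KO2 can likewise not be told apart from a trait of the control clone or clones. The labels do not say whether libraries of a group were separate cultures, and the p-values therefore measure the spread between libraries, which may be technical. Libraries of KO2 differed widely in some genes, such as Hexa (420 counts in replicate 2, 0 in replicate 3) and Gpnmb (11 in replicate 1, 2433 in replicate 4). The source of that spread was not tested.

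Lysosomes are acidic compartments in which hydrolases break down material delivered by endocytosis and autophagy. The V-ATPase pumps the protons that acidify the lumen, membrane proteins such as Lamp1 and Lamp2 line the organelle, and autophagy delivers cytoplasmic cargo through vesicles that carry LC3 and GABARAP proteins. TFEB, TFE3 and MITF are basic helix-loop-helix factors that bind E-boxes of the CLEAR type (around CACGTG) near the start sites of many lysosomal genes. Their entry into the nucleus is held back by mTORC1 at the lysosome surface through the Rag GTPases and folliculin, so that much of their activity is set on the protein and is not seen in mRNA levels.

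The E-box to which these factors bind was looked for in RefSeq promoters (GRCm38.p6, 250 bases before to 50 bases after the start site), which were found for 30 of the 34 genes. No entry was found for Npc1, Map1lc3a, Atp6v1b2 and Atp6v1h. CACGTG, which reads the same on both strands, was present in the promoters of 11 of the 30 genes (36.7%), against 8.09% of the 27025 genes with a promoter entry. These 11 were Lamp1, Mcoln1, Cln3, Gla, Glb1, Naglu, Ctsa, Atp6v0d1, Atp6v1a, Fnip1 and Rragc. All 11 also held the longer TCACGTG on either strand (4.29% of all genes), and 6 held the palindrome TCACGTGA (20.0%, against 1.12% of all genes); each of the longer motifs contains CACGTG, so these counts overlap. Of 120 further lysosome, autophagy and nutrient-sensing genes with a promoter entry, from the wider list described below, 25 held CACGTG (20.8%). TCACGTG was held by 17.5% and TCACGTGA by 7.5% of these further genes. The genes were picked for lysosomal roles and the motif is known from lysosomal genes, so a share above that of all genes is no separate finding. The comparison also takes all genes with a promoter entry, expressed in these cells or not. A match is a description of the letters and does not show that a factor binds there. The stretches below are shown because Lamp1 held the most copies, because Cln3, Ctsa and Fnip1 are described further on as changed in KO and hold the motif, and because Gusb, with the smallest adjusted p-value of the group, does not hold it in this stretch. They are read 5′ to 3′ on the strand of the gene, with CACGTG in capitals.
Lamp1, chr8:13159061-13159160, plus strand: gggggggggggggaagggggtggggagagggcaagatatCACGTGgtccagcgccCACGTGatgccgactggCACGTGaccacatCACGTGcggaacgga
Cln3, chr7:126583343-126583396, minus strand: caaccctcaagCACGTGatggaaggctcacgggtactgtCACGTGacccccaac
Ctsa, chr2:164833743-164833772, plus strand: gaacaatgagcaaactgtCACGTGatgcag
Fnip1, chr11:54438079-54438178, plus strand: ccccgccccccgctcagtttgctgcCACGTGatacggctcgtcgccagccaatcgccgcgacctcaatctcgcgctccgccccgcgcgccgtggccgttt
Gusb, chr5:130003050-130003149, minus strand: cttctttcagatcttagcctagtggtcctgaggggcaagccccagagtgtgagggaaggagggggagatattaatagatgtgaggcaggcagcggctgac
Lamp1 holds 4 copies within these 100 bases, Cln3 holds 2 within 54 bases, and Ctsa and Fnip1 hold 1 each. Ctsa has a further copy just after its start site, beyond the stretch shown.

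Gene counts per library ranged from 25367211 to 61110585, and mitochondrial genes took 0.980% to 1.72% of them, with the highest share in KO2 replicate 3. Levels are given as CPM (counts scaled to the TMM-adjusted size of each library), and, where genes are compared with each other, per kilobase of exon (RPKM). MaTAR25, listed as 1200007C13Rik, was at 0.768 and 0.915 CPM in control, at 0.0319, 0.232 and 0 CPM in KO1 and at 0.307, 0.0421, 0.204 and 0.123 CPM in KO2, so that all 7 KO libraries lay below both control libraries. The cells carried 6 of 7 epithelial markers, with Krt5 at 0 in all 9 libraries (summed level 2959 to 3099 CPM in control, 2420.0 to 3989 in KO1 and 1495 to 3086 in KO2). These did not stay level: Cdh1 was lower in all 7 KO libraries (log2 fold change -0.65, adjusted p = 0.0684), Krt8 passed as higher in KO1 (1.32, adjusted p = 0.0232), and Epcam was at 103.6 CPM in KO2 replicate 2 against 460.5 and 485 CPM in control. Cells rich in lysosomes or expressing Mitf and Gpnmb could raise several of the genes below. Of 9 macrophage markers, 8 were under 1 CPM in every library and Adgre1, Tyrobp, C1qa and C1qb were at 0 (summed level 5.003 to 5.71 CPM in control, 1.03 to 3.06 in KO1 and 1.79 to 9.66 in KO2). The remaining macrophage marker, Csf1r, was at 5.44 and 4.94 CPM in control, 0.929 to 2.85 CPM in KO1 and 1.20 to 8.64 CPM in KO2. Of 5 melanocyte markers, Tyr, Dct and Tyrp1 were at 0 and Pmel was detected in every library (summed level 1.10 to 1.13 CPM in control, 0.595 to 0.892 in KO1 and 0.251 to 1.09 in KO2). Of 6 osteoclast markers, Calcr and Ocstamp were at 0, but Acp5, itself a lysosomal acid phosphatase, rose from 23.6 and 25.6 CPM in control to between 31.8 and 47.7 CPM in KO (log2 fold change 0.72, adjusted p = 0.0315), and Mmp9 was at 209 and 166 CPM in control and 15.2 to 140.2 CPM in KO (log2 fold change -1.74, adjusted p = 0.147). The part of these markers in the results below was not tested.

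Lysosome and autophagy genes moved in both directions in the MaTAR25 KO cells. Comparing 7 KO with 2 control libraries with edgeR's quasi-likelihood test, 10 of the 33 genes passed an adjusted p-value of 0.1 (30.3%), against 22.6% of all 15023 genes tested. The 4 that were higher (11.9% of all genes) were the lumen proteins Gusb, Psap and Ctsa and the factor Tfe3. The 6 that were lower (10.7% of all genes) were Cln3, Atp6v1b2, Sqstm1, Map1lc3a, Gabarapl1 and Fnip1. The 33 log2 fold changes had a median of -0.16, beside 0.055 for all genes tested. In 7 of the genes every KO library lay above both control libraries (16.9% of all genes), and in 8 every KO library lay below them (17.6% of all genes). These are bulk libraries, in which fewer cells expressing a gene and less RNA per cell cannot be told apart. For each of the 10 genes that passed, the exact two-sided permutation test over the libraries gave p = 0.0278, the smallest that the 36 ways of choosing 2 control libraries among 9 allow. As these genes were picked for their difference in the same libraries, this value adds no separate evidence. The permutation also counts libraries of the same clone as separate units. With only 2 control libraries the calls leaned on each of them: without control replicate 1 the genes that passed numbered 2, Cln3 and Gusb, and without control replicate 2 only Gusb passed. In those fits the remaining control library is assumed to vary like the KO libraries.

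**Figure D1:**
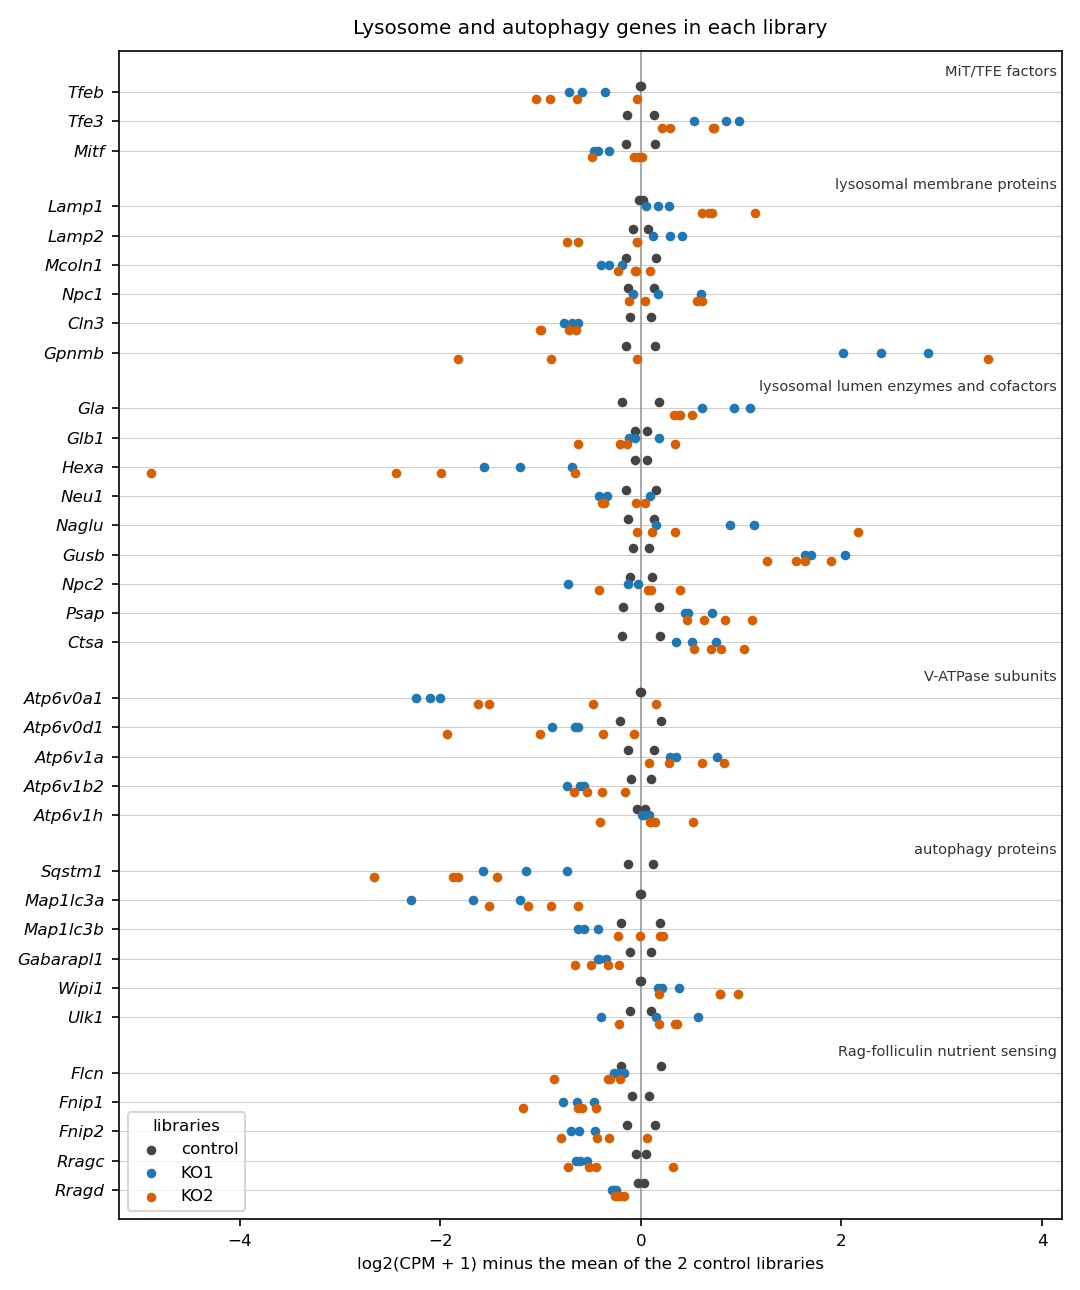
Level of each of the 34 genes in each library, as log2(CPM + 1) minus the mean of the 2 control libraries, with genes on the vertical axis grouped by role and points coloured by control, KO1 and KO2. Gusb, Psap and Ctsa lie to the right of control in all 7 KO libraries and Sqstm1, Map1lc3a and Cln3 to the left, while Hexa, Gpnmb, Naglu and Atp6v0a1 spread widely between libraries of KO2.

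Among the MiT/TFE factors, Tfe3 mRNA rose in KO and that of Tfeb and Mitf did not pass the test. Tfe3 stood at 43.7 and 52.8 CPM in control, at 70.0, 95.6 and 87.5 CPM in KO1 and at 59.1, 80.5, 55.6 and 79.8 CPM in KO2. All 7 KO libraries were above control, with a log2 fold change of 0.65 (SE 0.23, adjusted p = 0.0834). Leaving out 1 library at a time gave adjusted p-values from 0.0508 to 0.453 for Tfe3, and its call was lost without either control library, any KO1 library or KO2 replicate 4. Tfeb, the family member best known for driving lysosomal genes, was at 9.18 and 9.12 CPM in control and between 3.93 and 8.86 CPM in KO, below control in all 7 libraries, with a log2 fold change of -0.66 (SE 0.32, adjusted p = 0.187). Its KO library nearest to control was KO2 replicate 3, and without that library the Tfeb value was -0.79 with an adjusted p of 0.0872. Mitf, the melanocyte and osteoclast factor of the family, was at 5.22 and 6.62 CPM in control and 3.93 to 5.92 CPM in KO, and the libraries overlapped (log2 fold change -0.29, SE 0.28, adjusted p = 0.516). Per kilobase, Tfe3 was the most abundant of the 3 in control, at 5.21 RPKM, with Tfeb at 1.61 and Mitf at 0.956 RPKM.

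Of the 6 lysosomal membrane proteins, Cln3 fell in KO and the other 5 did not pass the test. Cln3, the protein altered in juvenile Batten disease, was at 92.2 and 106.7 CPM in control, at 61.4, 63.7 and 58.0 CPM in KO1 and at 49.4, 62.9, 48.8 and 60.2 CPM in KO2. The KO libraries sat close together and well below control, with a log2 fold change of -0.78 (SE 0.15, adjusted p = 0.00903). Without control replicate 2 the adjusted p of Cln3 was 0.155, and without control replicate 1 it was 0.0927. Lamp1, the main glycoprotein of the lysosomal membrane, was at 602 and 586 CPM in control, at 671, 614 and 720.5 CPM in KO1 and at 973, 1313, 952 and 905 CPM in KO2. All KO libraries were above control, the KO1 libraries only just, and over both clones the log2 fold change was 0.57 (SE 0.27, adjusted p = 0.180). Lamp2, the receptor of chaperone-mediated autophagy in an isoform of it, gave a log2 fold change of -0.036 (adjusted p = 0.948) over KO libraries that lay on either side of control. Mcoln1, the lysosomal calcium channel, gave -0.16 (adjusted p = 0.537), and Npc1, which moves cholesterol out of lysosomes, gave 0.29 (adjusted p = 0.472), both with overlapping libraries. Exons of Lamp1 overlap Grtp1 and those of Cln3 overlap Apobr on the opposite strand; as no strand setting is stated, reads in the shared bases cannot be assigned with certainty.

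Gpnmb, a glycoprotein that rises in lysosomal storage and is a target of the MiT/TFE factors in other cells, varied widely between libraries. It was at 4.10 and 3.17 CPM in control, at 32.7, 17.6 and 23.3 CPM in KO1 and at 0.307, 1.47, 3.51 and 49.7 CPM in KO2. The 3 KO1 libraries were all above control, while in KO2 a single library, replicate 4, was far above and the others were at or below control. The log2 fold change over both clones was 2.34 (SE 1.53, adjusted p = 0.326). For KO2 alone it was 1.92 (adjusted p = 0.394), and without KO2 replicate 4 it turned to -1.03 (adjusted p = 0.334). For KO1 alone it was 2.75 (adjusted p = 0.255), and 0.0379 was the adjusted p in the fit without KO2 replicate 4, which enters the shared spread. The melanocyte markers given above summed to at most 1.13 CPM in any library, and their part in the values of Gpnmb was not tested.

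Of the 9 lumen enzymes and cofactors, 3 rose in KO, beside 11.9% of all genes tested. Gusb gave the largest increase among the 10 genes that passed. Gusb, the beta-glucuronidase that cleaves glucuronic acid from glycosaminoglycans (GRCm38 chr5:129989011-130003049), was at 82.1 and 73.5 CPM in control, at 322, 254 and 244 CPM in KO1 and at 243, 291, 229.6 and 188 CPM in KO2. No KO library came near control, and the log2 fold change was 1.70 (SE 0.21, adjusted p = 0.00177). Gusb passed without either control library, with adjusted p-values of 0.0413 and 0.0470. Psap, the precursor of the saposins that present sphingolipids to their hydrolases, was at 431 and 552 CPM in control and rose to 664, 678 and 798 CPM in KO1 and to 756, 1056, 670.4 and 875 CPM in KO2. Its log2 fold change was 0.68 (SE 0.21, adjusted p = 0.0517). Ctsa, the carboxypeptidase that also protects beta-galactosidase and neuraminidase, was at 50.7 and 66.0 CPM in control, at 98.2, 83.2 and 74.2 CPM in KO1 and at 94.9, 84.0, 101.6 and 119.2 CPM in KO2. The log2 fold change of Ctsa was 0.68 (SE 0.20, adjusted p = 0.0478), and the KO libraries of both genes lay above control throughout. Psap and Ctsa lost their calls without control replicate 1 (adjusted p = 0.391 and 0.394) and without control replicate 2 (0.164 and 0.154). The exons of Ctsa overlap those of Pltp and Neurl2 on the opposite strand.

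The remaining lumen proteins did not pass the test over both clones. Gla, the alpha-galactosidase missing in Fabry disease, was at 7.35 and 9.76 CPM in control and between 10.9 and 19.1 CPM in KO, above control in every library (log2 fold change 0.68, SE 0.29, adjusted p = 0.141). The beta-galactosidase Glb1, neuraminidase Neu1 and the cholesterol carrier Npc2 had log2 fold changes of -0.062, -0.20 and -0.070, with KO libraries that overlapped control and adjusted p-values from 0.538 to 0.879. Naglu, which removes N-acetylglucosamine from heparan sulfate, was at 11.6 and 14.1 CPM in control, at 24.5, 29.3 and 14.4 CPM in KO1 and at 12.5, 13.9, 16.5 and 61.1 CPM in KO2. Its log2 fold change of 0.93 (SE 0.60, adjusted p = 0.315) rested largely on KO2 replicate 4, the library that was also far above the others for Gpnmb, and was 0.52 without it. Naglu (chr11:101070012-101077672) lies just downstream of Atp6v0a1 (chr11:101009452-101063719) on the same strand.

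Hexa, the alpha chain of beta-hexosaminidase whose loss causes Tay-Sachs disease (chr9:59539540-59565109), was lower than control in all 7 KO libraries. Its level was 29.7 and 27.2 CPM in control, 11.8, 17.3 and 8.98 CPM in KO1 and 4.43, 17.7, 0 and 6.38 CPM in KO2. KO2 replicate 3 had no count for Hexa, which allows up to 0.0678 CPM (3 counts, counting error only), a level at least 419.5-fold lower than the control mean. The flanking genes Arih1 and Parp6 were read at 94.4 and 21.1 CPM in that library, against 270.6 and 254.9 CPM for Arih1 and 59.6 and 57.8 CPM for Parp6 in control. Both flanking genes were below control in all 7 KO libraries, at 94.4 to 186.0 CPM for Arih1 and 21.1 to 38.9 CPM for Parp6. Hexa did not pass the test (log2 fold change -1.58, SE 1.08, adjusted p = 0.348; exact permutation p = 0.139). Without KO2 replicate 3, which spreads the group, the log2 fold change was -1.36 and the adjusted p was 0.0832. Exons of Hexa overlap Tmem202 on the opposite strand.

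Among the V-ATPase subunits the direction was not shared. Atp6v1b2, the B2 subunit of the catalytic head, fell from 162 and 187 CPM in control to 114, 117 and 104 CPM in KO1 and 109, 156, 133 and 119.9 CPM in KO2. All 7 KO libraries were below control (log2 fold change -0.52, SE 0.16, adjusted p = 0.0609), and the adjusted p of Atp6v1b2 was 0.228 without control replicate 1 and 0.422 without control replicate 2. Atp6v0a1, an a subunit of the membrane sector, was at 134 and 133 CPM in control, at 32.6, 30.3 and 27.4 CPM in KO1 and at 46.1, 42.7, 148 and 95.8 CPM in KO2. KO1 was low in all 3 libraries while KO2 replicate 3 exceeded control, and over both clones the log2 fold change was -1.14 (SE 0.57, adjusted p = 0.201). Without KO2 replicate 3 the value for Atp6v0a1 was -1.54 with an adjusted p of 0.0381. Atp6v0d1, the d subunit that joins both sectors, gave -0.73 (SE 0.36, adjusted p = 0.202), the catalytic A subunit Atp6v1a gave 0.48 (SE 0.22, adjusted p = 0.163), and the regulatory H subunit Atp6v1h gave 0.089 (SE 0.21, adjusted p = 0.806).

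**Figure D2:**
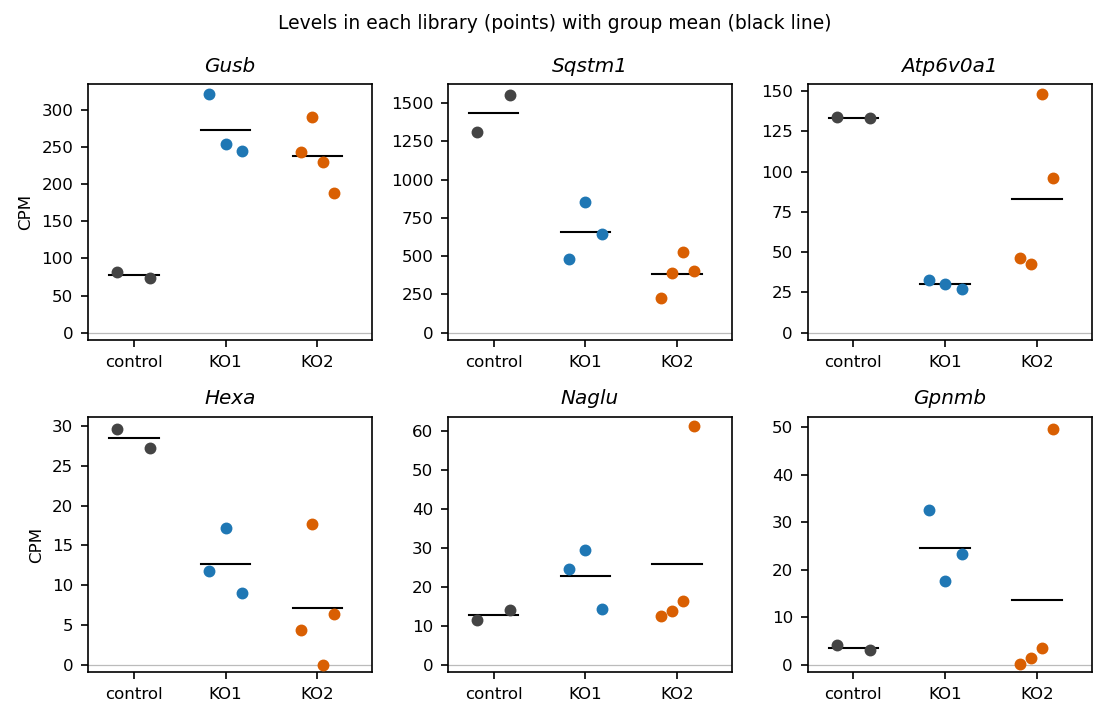
CPM in each library for 6 genes, with libraries as points by group (control, KO1, KO2) and the group mean as a black line; each axis includes 0. Gusb is above and Sqstm1 below control in all 7 KO libraries, Atp6v0a1 and Hexa vary within KO2, and Naglu and Gpnmb each have KO2 replicate 4 (61.1 and 49.7 CPM) far from the other KO2 libraries.

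Among the autophagy proteins, 3 of 6 fell in KO, beside 10.7% of all genes tested. Of 38 other autophagy genes, described further on, 3 were lower. Sqstm1, which encodes the cargo receptor p62 (chr11:50199366-50210827), was the most abundant gene of the group per kilobase in control, at 426.5 RPKM. It stood at 1309 and 1554 CPM in control, at 480.1, 856 and 643 CPM in KO1 and at 224, 389, 527 and 401 CPM in KO2. The highest KO library was below the lowest control library, with a log2 fold change of -1.51 (SE 0.35, adjusted p = 0.0190). Map1lc3a, an LC3 protein that coats the autophagosome membrane, was at 30.9 and 30.7 CPM in control, at 12.9, 9.02 and 5.52 CPM in KO1 and at 16.1, 10.1, 13.7 and 19.6 CPM in KO2. Its log2 fold change was -1.31 (SE 0.36, adjusted p = 0.0367). Gabarapl1, of the GABARAP branch of that family, was at 50.6 and 58.7 CPM in control and 34.2 to 46.8 CPM in KO, a smaller difference that was present in all 7 libraries (log2 fold change -0.42, SE 0.15, adjusted p = 0.0919). The calls of Sqstm1 and Map1lc3a were lost without control replicate 1 (adjusted p = 0.138 and 0.242) and control replicate 2 (0.186 and 0.226). Adjusted p-values of Gabarapl1 ran from 0.0550 to 0.536 when 1 library was left out, and its call was lost without either control library, any KO1 library, or KO2 replicates 1 or 3. Exons of Sqstm1 overlap Mrnip, and those of Gabarapl1 overlap 1700101I11Rik, on the opposite strand.

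Other steps of autophagy gave values that did not pass the test over both clones. Map1lc3b, the LC3 protein most often used to mark autophagosomes, gave a log2 fold change of -0.18 (SE 0.25, adjusted p = 0.662) with overlapping libraries. Wipi1, which binds phosphoinositide on forming autophagosomes, was at 44.0 and 44.1 CPM in control and 49.7 to 86.9 CPM in KO, above control in all 7 libraries (log2 fold change 0.54, SE 0.25, adjusted p = 0.175). Ulk1, the kinase that starts autophagy, gave 0.18 (SE 0.24, adjusted p = 0.662).

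In Rag-folliculin nutrient sensing, all 4 genes tested had values below 0 and Fnip1 was the gene that passed. Fnip1, a folliculin partner, was at 105.8 and 119.0 CPM in control, at 71.7, 80.9 and 65.0 CPM in KO1 and at 49.3, 72.1, 74.3 and 82.1 CPM in KO2. Every KO library was below control (log2 fold change -0.67, SE 0.18, adjusted p = 0.0357), and the adjusted p of Fnip1 was 0.196 without control replicate 1 and 0.315 without control replicate 2. Its paralog Fnip2 gave -0.46 (SE 0.23, adjusted p = 0.197), folliculin (Flcn) gave -0.34 (SE 0.20, adjusted p = 0.265), and the GTPase Rragc gave -0.41 (SE 0.25, adjusted p = 0.297). For Fnip2 and Rragc, KO2 replicate 2 lay within or above control, at 45.1 and 170.5 CPM, and without that library both passed, with adjusted p-values of 0.0524 and 0.0140. Rragd, a GTPase gene known as a strong target of the MiT/TFE factors, was close to silent: its counts were 17 over the 2 control libraries, 2 over the 3 KO1 libraries and 7 over the 4 KO2 libraries. It did not pass the filter on low counts, and without that filter its log2 fold change was -2.64 (SE 0.67, adjusted p = 0.0320).

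Set against the same 2 control libraries, the clones shared 8 of their calls. In KO1, 12 of the 33 genes passed (36.4%, against 31.6% of all genes), 5 higher and 7 lower (15.9% and 15.7% of all genes). In KO2, 11 passed (33.3%, against 31.4% of all genes), 5 higher and 6 lower (16.5% and 15.0% of all genes). Gusb, Psap and Ctsa were higher in both clones (9.91% of all genes) and Cln3, Atp6v1b2, Sqstm1, Map1lc3a and Fnip1 were lower in both (8.45% of all genes). Since both comparisons use the same control libraries, agreement between them is not independent. Gusb had log2 fold changes of 1.81 (SE 0.21) in KO1 and 1.61 (SE 0.21) in KO2, and Cln3 of -0.70 (SE 0.17) and -0.85 (SE 0.16). Map1lc3a had -1.75 (SE 0.36) in KO1 and -1.05 (SE 0.34) in KO2, and Fnip1 -0.63 (SE 0.21) and -0.69 (SE 0.20). Tfe3, Gla, Atp6v0a1 and Map1lc3b passed in KO1 and not in KO2, and Lamp1, Gabarapl1 and Wipi1 passed in KO2 and not in KO1; among these 7, the test between the clones, given further on, passed for Atp6v0a1, Map1lc3b and Lamp1. Without control replicate 1, 4 genes passed in KO1 and 3 in KO2, and without control replicate 2, 4 passed in KO1 and 5 in KO2.

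**Figure D3:**
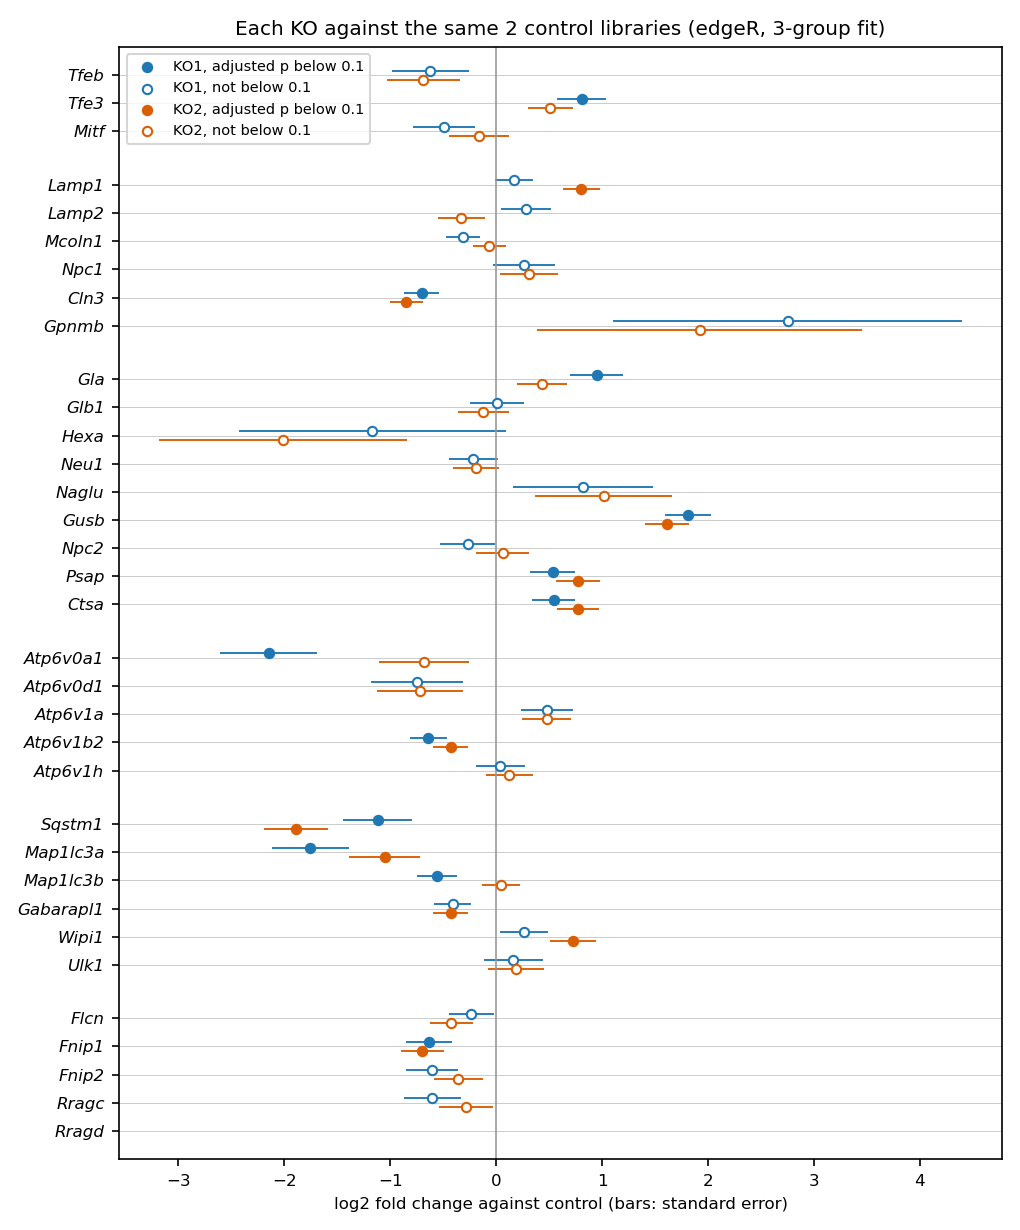
Log2 fold change of each gene in KO1 and in KO2 against the same 2 control libraries, with standard errors as bars, filled points for adjusted p below 0.1 and open points otherwise; Rragd was not tested. Gusb is the rightmost filled point of either clone, and Sqstm1, Map1lc3a and, in KO1, Atp6v0a1 are the leftmost.

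The clones themselves differed in 5 of the 33 genes (15.2%, against 19.6% of all genes), 2 higher and 3 lower in KO1 (9.43% and 10.2% of all genes). Lamp1 and Map1lc3b were lower in KO1 than in KO2, by log2 differences of -0.63 (SE 0.15, adjusted p = 0.0296) and -0.60 (adjusted p = 0.0418). Atp6v0a1 was also lower in KO1, by -1.47 (adjusted p = 0.0456). Sqstm1 and Lamp2 were higher in KO1, by 0.78 (adjusted p = 0.0968) and 0.61 (adjusted p = 0.0738). The KO1 and KO2 libraries of Sqstm1 overlapped, at 480.1 CPM in the lowest KO1 and 527 CPM in the highest KO2 library, while Lamp1 was at 720.5 CPM in the highest KO1 and 905 CPM in the lowest KO2 library. All 5 calls were lost without KO1 replicate 2, where the adjusted p of Lamp1 was 0.138 and that of Lamp2 was 0.234; Lamp2 kept its call only without KO2 replicate 2 or 4. Over all libraries left out in turn, adjusted p-values reached 0.154 for Atp6v0a1 and 0.138 for Map1lc3b, both of which lost their calls without any 1 of the KO1 libraries, and 0.337 for Sqstm1, which kept its call only without KO1 replicate 1 or KO2 replicate 3.

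The wider pathway was described through 151 further genes, of which 145 were tested. In KO, 18 of them were higher and 12 lower (20.7% in all, beside 22.6% of all genes), and the median of their log2 fold changes was 0.071. Among 28 other lysosomal hydrolases and related proteins, 7 were higher and 1 was lower, with a median of 0.32. The 2 named as higher, Gm2a and Nagpa, are not themselves lysosomal hydrolases. Gm2a, the activator that presents ganglioside to hexosaminidase, rose from 16.3 and 20.0 CPM in control to between 27.4 and 64.1 CPM in KO (log2 fold change 1.44, SE 0.29, adjusted p = 0.0112). Nagpa, which uncovers the mannose 6-phosphate sorting tag, rose by 1.45 on the log2 scale (SE 0.42, adjusted p = 0.0430), and the acid ceramidase Asah1 fell by 0.52 (SE 0.18, adjusted p = 0.0767). Of 13 other lysosomal proteases, 3 were higher and 2 lower. Ctsl, the cathepsin L gene, was at 306 and 372 CPM in control, at 520.0, 640.4 and 804 CPM in KO1 and at 1201, 1317, 934 and 974 CPM in KO2 (log2 fold change 1.43, SE 0.34, adjusted p = 0.0205). Tpp1, a tripeptidyl peptidase, rose by 0.76 (adjusted p = 0.0752) and the cathepsin gene Ctso fell by 1.69 (adjusted p = 0.0592). All of these calls were lost without control replicate 1 and without control replicate 2, with adjusted p-values of 0.108 to 0.436 (the lowest for Gm2a, the highest for Asah1). Tpp1 also lost its call without KO1 replicates 1 or 2 or KO2 replicate 3, and Asah1 without any KO1 library or KO2 replicate 3.

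Membrane, pump, autophagy and nutrient-sensing genes of that wider list passed the test in shares of 28.6%, 26.7%, 7.89% and 13.3%, beside 22.6% of all genes (11.9% higher and 10.7% lower). Of 21 other membrane and sorting proteins, 2 were higher and 4 lower: Gnptab, which builds the mannose 6-phosphate tag, rose by 0.87 (adjusted p = 0.0278) and the transporter Spns1 by 0.76 (adjusted p = 0.0154), while the cobalamin exporter Lmbrd1 fell by 1.23 (adjusted p = 0.00410) and the cystine exporter Ctns by 1.84 (adjusted p = 0.0901). Of 15 other V-ATPase genes, 3 were higher and 1 lower, among them Atp6ap2 (1.15, adjusted p = 0.0309), Atp6v1f (0.89, adjusted p = 0.0110) and Atp6v1g1 (-0.83, adjusted p = 0.0191). Of 38 other autophagy genes, 3 were lower, including Stx17, the syntaxin that fuses autophagosomes with lysosomes (-0.83, adjusted p = 0.0158), and the LC3 protease gene Atg4c (-0.77, adjusted p = 0.0356). Of 30 other mTORC1 and nutrient-sensing genes, 3 were higher and 1 lower. Lamtor1, the anchor of the Ragulator complex that holds the Rag GTPases at the lysosome, was at 30.9 and 32.1 CPM in control and at 64.0 to 77.7 CPM in KO (log2 fold change 1.14, SE 0.14, adjusted p = 0.00177), and Lamtor4 of the same complex rose by 0.94 (adjusted p = 0.0315). Sesn2, a leucine sensor that restrains mTORC1, fell from 65.0 and 75.1 CPM in control to between 4.78 and 32.6 CPM in KO (log2 fold change -2.50, SE 0.57, adjusted p = 0.0168). Lmbrd1 and Lamtor1 passed without either control library; the other genes named here lost their calls without control replicate 1 and without control replicate 2, with adjusted p-values of 0.113 for Spns1 to 0.551 for Ctns. Ctns also lost its call without KO1 replicates 2 or 3 or KO2 replicates 2 or 4.

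**Figure D4:**
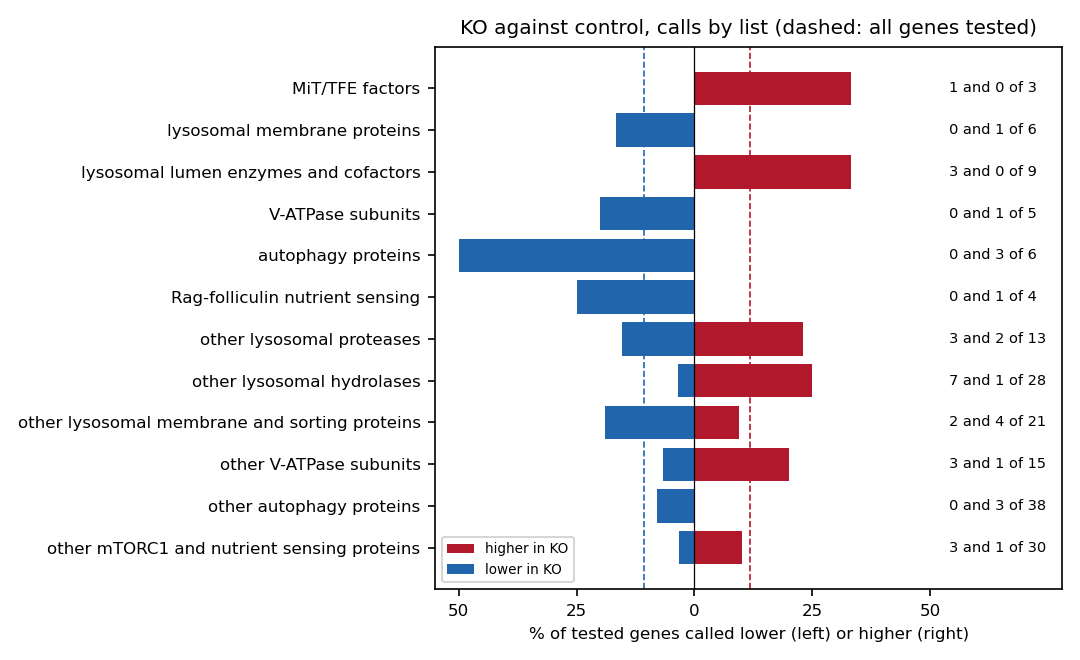
Share of tested genes called higher (right) or lower (left) in KO for the 6 groups of members and the 6 lists of further pathway genes, with the counts at the right as higher and lower of tested; dashed lines mark the shares over all 15023 genes, 11.9% higher and 10.7% lower. Lumen enzymes and cofactors (3 of 9) and other hydrolases and related proteins (7 of 28) extend to the right and autophagy proteins (3 of 6) to the left.

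Promoter motif and expression were set side by side for the genes with a promoter entry. Of the 8 genes that changed in KO and have an entry, 3 held CACGTG, namely Ctsa, which was higher, and Cln3 and Fnip1, which were lower. Of the 22 others with an entry, 8 held it. Gusb, Psap, Tfe3, Sqstm1 and Gabarapl1, which also changed, have no CACGTG in the window searched, which says only that these letters are not there.

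Chromatin Isolation by RNA Purification (ChIRP), in which labelled oligonucleotides against MaTAR25 pull down the chromatin it is attached to, gave a further readout that did not depend on expression. In the list from 4T1 cells with all oligonucleotides pooled, 20 of the 33 tested genes had a peak inside the gene (60.6%), against 51.5% of genes tested. A longer gene offers more room for a peak, and gene length was not taken into account. A peak annotated to a promoter was listed for Mitf, Sqstm1 and Map1lc3a (9.09%, against 8.32% of genes). Restricted to peaks with a score of at least 100, the share of genes with a peak inside was 18.2%, below the 23.3% of all genes. The highest scores fell in introns of Mitf, at chr6:97995872-97996752 (score 513) and chr6:97838291-97839137 (score 484). They were followed by a peak over an exon of Npc2 at chr12:84760433-84761057 (score 337). The oligonucleotides were also used as separate odd and even pools, which the paper ran to make the retrieval specific. At the first Mitf site the odd list held a peak (score 1365) and the even list held none. The second Mitf site had a peak in both lists (odd 876, even 326), and so had the Npc2 site (odd 337, even 182). In the list from mammary tumor cells of the MMTV-Neu-NDL mouse (HER2 subtype), 19 of the 33 genes had a peak inside (57.6%, against 50.5% of genes). A promoter peak was listed for 4 (12.1%, against 8.21%). The Mitf introns again held peaks, with scores of 615 and 520.3, from the same full oligonucleotide pool. Neither Mitf nor Npc2 passed the expression test. Replicates were pooled before peaks were called, so that no spread between them can be given. Gusb, the gene with the smallest adjusted p-value, had no peak inside it in any of the 4 lists. Sqstm1 had 1 in the pooled 4T1 list, at chr11:50207158-50207657 (score 77.3), annotated to the promoter of a transcript inside the gene. The odd, even and NDL lists held no peak inside Sqstm1.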

How the data were processed

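PolyA RNA-seq of 4T1 cells (2 control, 3 KO1 and 4 KO2 libraries) and ChIRP peak lists were used. The deposited counts were made by the authors with STAR (GRCm38) and HTSeq (GENCODE vM5); the sources used here name neither versions nor the strand setting. From 33.9% to 37.0% of the reads listed had no single gene and were not used, mostly reads aligned to several places (24.1% to 27.5%), with 2.28% to 2.38% ambiguous between genes. The KO2 replicate 2 file lists each gene 3 times with the same value, which was used once. ChIRP peak scores were deposited by the authors as HOMER gave them, on pooled replicates.

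Counts were tested with edgeR 4.0.16 (R 4.3.3; TMM, filterByExpr, quasi-likelihood, Benjamini-Hochberg over 15023 genes, adjusted p below 0.1). KO against control was fitted with 2 groups, and the clones in a fit with 3 groups. Standard errors are the log2 fold change divided by the root of the F statistic. For single genes, an exact permutation test was run on log2(CPM + 1). RPKM uses the summed exon length of the annotation. Alternatives included DESeq2 1.42.0. The fits were run on simulated counts to check the direction of changes and the calls. The simulation had a smaller spread than the real libraries and no other differences between clones, so it does not test the pooled comparison as designed here. Members and lists were chosen with earlier results of these data known. All members are named; of the further genes of each list, up to 2 per direction with the largest change among those that passed, had a mean of at least 1 CPM and moved the same way in every library are named. Library depth limits the precision of low genes, and limits on zero counts cover counting error only. Columns from samples of other series numbered 0.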

Additional observations from a re-analysis of the deposited data

Results flagged for a closer look

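Single libraries stood far from the others of their group in 6 of 68 groups of values checked. Chance alone gives about 1 in 20 for independent groups. The groups checked overlap, as the KO libraries include those of KO2 and mix both clones, so the count cannot be set against that rate. Lamp1 was at 1313 CPM in KO2 replicate 2, Gpnmb at 49.7 CPM in KO2 replicate 4, and Naglu at 61.1 CPM in KO2 replicate 4, far from the other KO2 libraries and, for Naglu, from all other KO libraries. Over the 7 KO libraries, Flcn was low at 36.3 CPM in KO2 replicate 1 and Rragc high at 170.5 CPM in KO2 replicate 2.

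The clones differed by the edgeR test between them in 5 genes. Lamp1 differed by -0.63 (adjusted p = 0.0296), Atp6v0a1 by -1.47 (adjusted p = 0.0456) and Map1lc3b by -0.60 (adjusted p = 0.0418), lower in KO1. Lamp2 differed by 0.61 (adjusted p = 0.0738) and Sqstm1 by 0.78 (adjusted p = 0.0968), higher in KO1.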

How the results depend on the processing

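For KO against control, DESeq2 called 11 genes including all 10, and RLE size factors and a minimum of 10 counts in every library called 10. Without a filter on low counts 9 passed, losing Tfe3 and Gabarapl1 and gaining Rragd; the mean of the clones in the 3-group fit gave 13 and a replicate block 5. At an adjusted p of 0.05, genes higher numbered 2 in KO and 3 in KO1, and genes lower in KO2 numbered 3. With the replicate block, 1 gene was higher in KO, and the further pathway genes lower in KO numbered 7 (21 with the mean of the clones). KO1 fitted with control alone gave 8 genes higher and 14 lower, and 3 were higher in KO1 without the filter. Genes higher in KO1 than in KO2 numbered 0 at 0.05 and 0 when only the clones were fitted; DESeq2 called 7 genes between the clones. The share of genes with a ChIRP peak was 18.2% for scores of at least 100.

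Leaving out 1 library at a time, genes higher numbered 1 to 4 in KO, 1 to 6 in KO1, 1 to 7 in KO2 and 0 to 2 in KO1 against KO2; genes lower numbered 0 to 8, 2 to 10, 2 to 10 and 0 to 5. The further pathway genes numbered 1 to 24 higher and 1 to 14 lower. Signs turned for Lamp2 (lowest -0.126; 0.046 without control replicate 2, 0.056 and 0.041 without KO2 replicates 1 and 3), Glb1 (lowest -0.142; 0.069 with the block, 0.016 without control replicate 1, 0.012 without KO2 replicate 3), Npc2 (lowest -0.163; 0.050 without control replicate 2, 0.017 without KO1 replicate 1), Map1lc3b (lowest -0.351; 0.029 without control replicate 2), Atp6v1h (highest 0.160; -0.002 without KO2 replicate 2) and Gpnmb in KO2 (highest 2.33; -1.59 with the block, -1.03 without KO2 replicate 4). None of these had passed the test, and the cause was not tested. The deviations of libraries with the same replicate number from their group means had correlations of r from -0.196 to 0.0558. Groups are small and libraries of different number were not compared, so this does not settle whether the numbers pair the samples.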
